A study of Mus musculus with 8 samples.

Results

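The histone genes on the array were taken as all probes whose gene symbol begins with Hist1h, Hist2h, Hist3h or Hist4h, which name the replication-dependent genes, or with H1f, H2af or H3f, which name the variants. This gave 73 of the 25697 probes, for 67 of 18138 gene symbols. Of these, 60 probes for 56 symbols were replication-dependent and 13 probes for 11 symbols were variants, and the classes are kept apart below. The data were 8 Illumina bead arrays of RNA from bone marrow-derived macrophages of female C57bl/6J mice aged 8 weeks, with 2 arrays in each of 4 groups. In all groups the bone marrow cells had grown for 7 days in GM-CSF (10 ng/ml), a growth factor that drives myeloid precursors to divide and mature. WT unstimulated and iNOS-/- unstimulated cells received nothing further. WT M1 and iNOS-/- M1 cells received LPS (200 ng/ml) and IFN-γ (10 ng/ml) for 6 h. The genotypes were wild type and iNOS deficient, and the study asked how loss of inducible nitric oxide synthase changes M1 activation. The study's methods list the iNOS-deficient mice under another strain name than C57BL/6J, so strain background cannot be told apart from genotype. Whether the paired arrays stand for separate mice is not in the labels, so p-values reflect array-to-array spread only.

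Histones package DNA. Pairs of H2A, H2B, H3 and H4 form the core of the nucleosome, and H1 binds the linker DNA between nucleosomes. The replication-dependent genes lie in clusters, are transcribed mainly in S phase to coat newly made DNA, and give mRNAs that end in a stem-loop in place of a poly(A) tail. Variant genes lie outside the clusters, are expressed throughout the cell cycle, and most give polyadenylated mRNAs. The labelling primer of these arrays is not given in the sources used here. Which forms of replication-dependent histone mRNA the probes report, with or without a poly(A) tail, is therefore not known.

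Intensities were as the scanner software wrote them, with 11833 to 12673 probes detected per array (detection p-value under 0.05). Levels below are log2 of the intensity after a rank-invariant scaling of every array. They are compared between groups for the same probe, never between probes. A probe was tested if it was detected on at least 2 of the 8 arrays, which held for 13868 probes, and a difference was called at an adjusted p under 0.05 from limma over all of them. Over histone probes, the median absolute log2 difference was 0.12 to 0.19 between arrays of 1 group and 0.35 to 1.07 between arrays of different groups. Nos2, the targeted gene, was detected on no unstimulated array. Its log2 level was 7.05 and 7.47 on the WT M1 arrays and 7.49 and 7.67 on the arrays labelled iNOS-/- M1, so these M1 groups differed by 0.32 (limma standard error 0.32, adjusted p = 0.445). Knockout labels did not go with a lower Nos2 level, and whether its probe lies in the deleted part is not given in the sources used here. All 10 macrophage marker probes looked for were detected on every array. In bulk RNA, fewer cells of a type and less RNA per cell cannot be told apart.

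Members of a histone family are nearly alike in their coding sequence, and this holds for the probes. Each probe has 50 bases. In 16 of the 73, at least 40 bases matched another histone probe when both were laid along each other. Probes placed further apart along near-identical genes could not reach this count, and probes were not compared with transcripts. The H2A probes show how close they lie, since many of the calls described below are of H2A genes. All genes printed lie on chromosome 13, and capitals mark bases unlike those of the first probe of each set. The first set, of Hist1h2ao, Hist1h2af and Hist1h2an, lies near the end of the coding part.
Hist1h2ao: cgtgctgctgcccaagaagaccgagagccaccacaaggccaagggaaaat
Hist1h2af: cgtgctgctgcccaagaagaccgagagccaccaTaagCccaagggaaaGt
Hist1h2an: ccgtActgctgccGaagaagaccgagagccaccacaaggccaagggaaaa
Hist1h2af differs from Hist1h2ao at 3 of 50 bases, and Hist1h2an at 2 of the 49 that overlap. The second set lies at the start of the coding part.
Hist1h2ak: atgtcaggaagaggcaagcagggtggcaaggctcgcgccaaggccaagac
Hist1h2ad: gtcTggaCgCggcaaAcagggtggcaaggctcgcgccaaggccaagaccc
Here 4 of the 48 overlapping bases differ. The third set shows H2B genes, which went the other way between unstimulated groups and in WT activation.
Hist1h2bf: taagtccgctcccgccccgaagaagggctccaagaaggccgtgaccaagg
Hist1h2bh: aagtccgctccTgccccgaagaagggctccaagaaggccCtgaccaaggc
These differ at 2 of 49 bases. The probes of Hist1h4k and Hist1h4m share a run of 47 bases without a difference. Transcripts of such close genes can bind each other's probes, so members of 1 set are not independent measurements and the level of a single gene in a set is uncertain. Probes outside these sets may share transcripts too, which was not tested.

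Of the 60 replication-dependent probes, 31 were detected on all 8 arrays and 12 on none, and 45 were tested. The probes of Hist1h1a, Hist1h1d, Hist1h1e and Hist1h1t (linker histones), Hist1h2ac, Hist1h2ba, Hist1h2bb, Hist2h2bb, Hist3h2ba, Hist3h2bb, Hist1h4b, Hist2h4, Hist4h4 and 2 probes of Hist1h3f were not tested, though another Hist1h3f probe was. Of the 13 variant probes, 9 were detected on all arrays and 3 on none. Those 3 were H1fnt and H1foo, which are germ cell linker histones, and H2afy3. The counts over both classes follow, with the share of all tested probes called in the same direction beside each. The comparisons share arrays, so their counts are not independent of each other.

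Between unstimulated cells, replication-dependent histone probes were more often higher on the arrays labelled iNOS-/-. Of the 45, 20 were higher and 6 lower than in WT, against 16.7% and 15.4% of all tested probes. Of the 10 tested variant probes, 8 were higher and 0 lower by limma, and at an unadjusted p under 0.05 none was lower either. After M1 activation of WT cells, 21 replication-dependent probes rose and 8 fell, against 20.8% and 14.3% of all tested probes, and 7 variant probes rose. Over all probes, 59.3% of the calls in this comparison were rises, against 44.4% under neqc (normexp background correction with quantile normalization) and 47.4% under quantile normalization alone. After M1 activation of cells labelled iNOS-/-, 10 replication-dependent probes rose and 12 fell, against 25.2% and 25.1% of all tested probes, and 4 variant probes rose and 2 fell. In M1 cells, 15 stood higher and 12 lower in iNOS-/- than in WT, against 22.9% and 25.3%, and 3 variant probes stood higher and 3 lower. The difference of the M1 responses, iNOS-/- minus WT, was above 0 for 4 and below 0 for 11 replication-dependent probes, against 19.4% and 22.6% of all tested probes, and below 0 for 7 of 10 variant probes. Leaving out the second iNOS-/- M1 array lowered the 27 calls between M1 groups to 17, and leaving out the second iNOS-/- unstimulated array lowered the 26 calls between unstimulated groups to 17. Within each comparison the families of core histones went different ways.

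**Figure D1:**
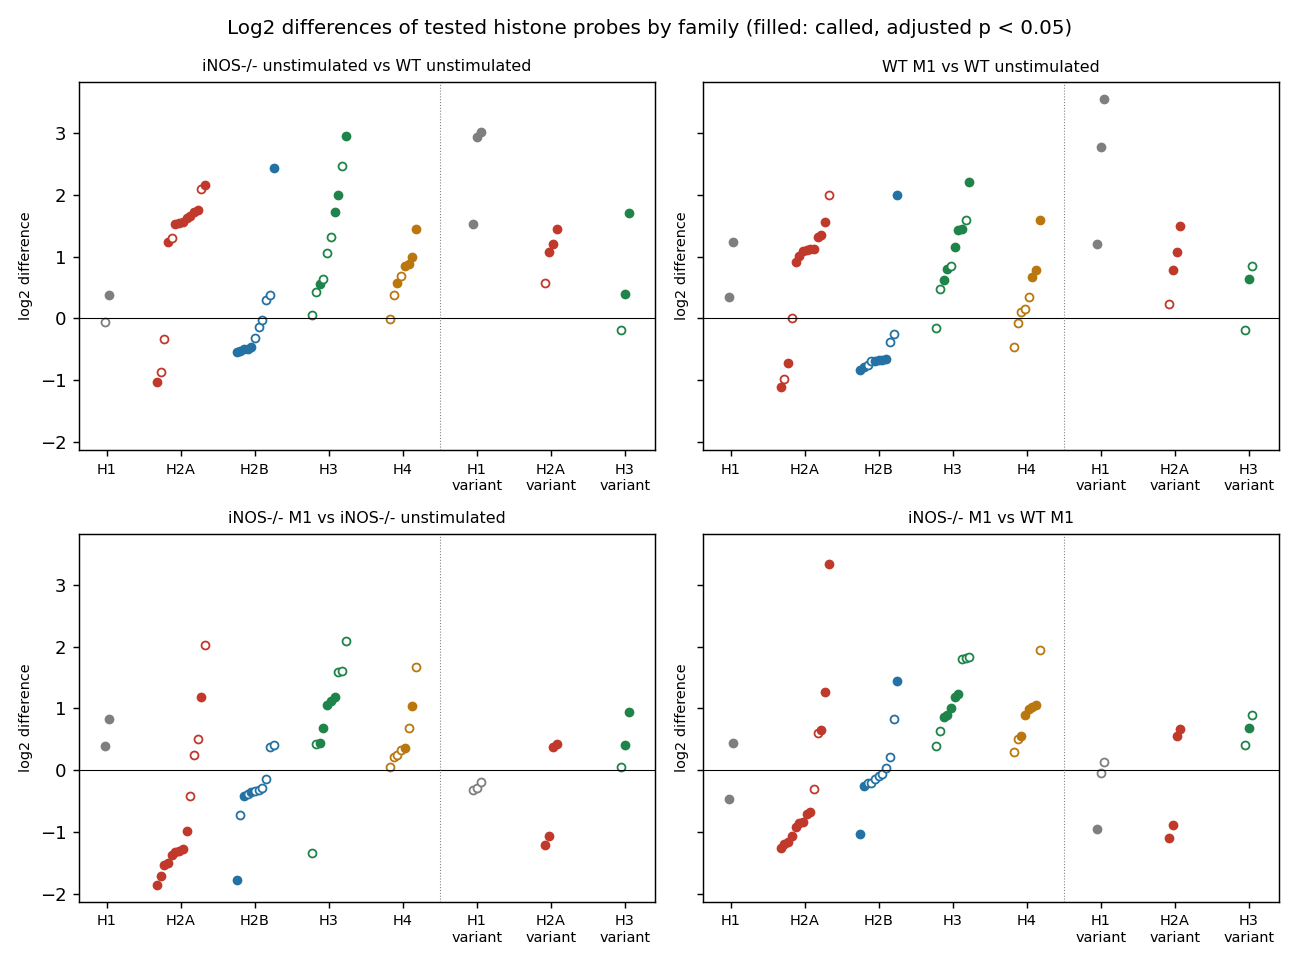
Log2 difference of every tested histone probe in 4 comparisons, by family, with replication-dependent genes left of the dotted line and variants right of it. Filled points were called at an adjusted p under 0.05 from limma and open points were not; H2A and H2B separate in the upper panels, and most H2A points cross to below 0 in the lower ones.

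Most H2A genes rose with M1 activation in WT cells and fell with it in cells labelled iNOS-/-. Of the 14 tested H2A probes, 9 were higher and 1 was lower on unstimulated iNOS-/- than on unstimulated WT arrays, with a median log2 difference of 1.55 against 0.00 over all tested probes. In WT cells 9 rose and 2 fell with M1 activation, with a median of 1.09 against 0.09. In cells labelled iNOS-/- 1 rose and 9 fell, with a median of -1.29 against 0.00. Between M1 groups 3 H2A probes stood higher and 9 lower in iNOS-/-, with a median of -0.78 against -0.03. Each count of 9 was 64.3% of the H2A probes. Of all tested probes, 16.7% were higher between unstimulated groups and 20.8% rose in WT activation. In activation of cells labelled iNOS-/- 25.1% of all tested probes fell, and between M1 groups 25.3% were lower.

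Hist1h2af stood at log2 9.0 and 8.84 on the WT unstimulated arrays, 10.20 and 10.33 on WT M1, 10.64 and 10.72 on iNOS-/- unstimulated and 9.29 and 9.42 on iNOS-/- M1. The lowest group was thus WT unstimulated and the highest iNOS-/- unstimulated, and no groups overlapped. Unstimulated cells differed by 1.76 (standard error 0.11, adjusted p = 0.000403 from limma), a 3.38-fold difference. The level rose 2.55-fold with activation in WT and fell 2.51-fold on the arrays labelled iNOS-/-, and the difference of these responses was -2.67 (standard error 0.15, adjusted p = 0.000371 from limma).

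Hist1h2ah, whose probe lies at the start of the coding part, had 8.36 and 8.54 on WT unstimulated, 9.78 and 9.77 on WT M1, 10.12 and 10.04 on iNOS-/- unstimulated and 8.59 and 8.58 on iNOS-/- M1. The order of the groups was that of Hist1h2af. Hist2h2ab, from the cluster on chromosome 3, was dimmer, with 4.50 and 5.05, 6.45 and 6.23, 6.94 and 6.94, and 4.66 and 5.49 in the same order of groups. On this probe the unstimulated WT and the M1 arrays labelled iNOS-/- overlapped, while the other groups lay above both. Its difference between unstimulated cells was 2.16 (standard error 0.32, adjusted p = 0.00656 from limma), the largest called among H2A genes.

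Hist1h2ad, Hist1h2ag, Hist1h2ak, Hist1h2an, Hist1h2ao and Hist2h2ac went the same way. Together with the 3 genes above they form 9 probes, picked out after their values were seen and so described without a test of their own. Between unstimulated groups their log2 differences ran from 1.23 to 2.16. In WT M1 activation they ran from 0.91 to 1.56, in activation of cells labelled iNOS-/- from -1.86 to -0.98, and between M1 groups from -1.26 to -0.67. The difference of responses ran from -3.43 to -1.89. Each was called in every comparison. Of the 16 settings tried, the main one and arrays left out among them, those for unstimulated cells and for activation of cells labelled iNOS-/- kept all 9 calls. Between M1 groups Hist2h2ab was not called in every setting, nor were Hist1h2ag and Hist2h2ab in WT activation.

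**Figure D2:**
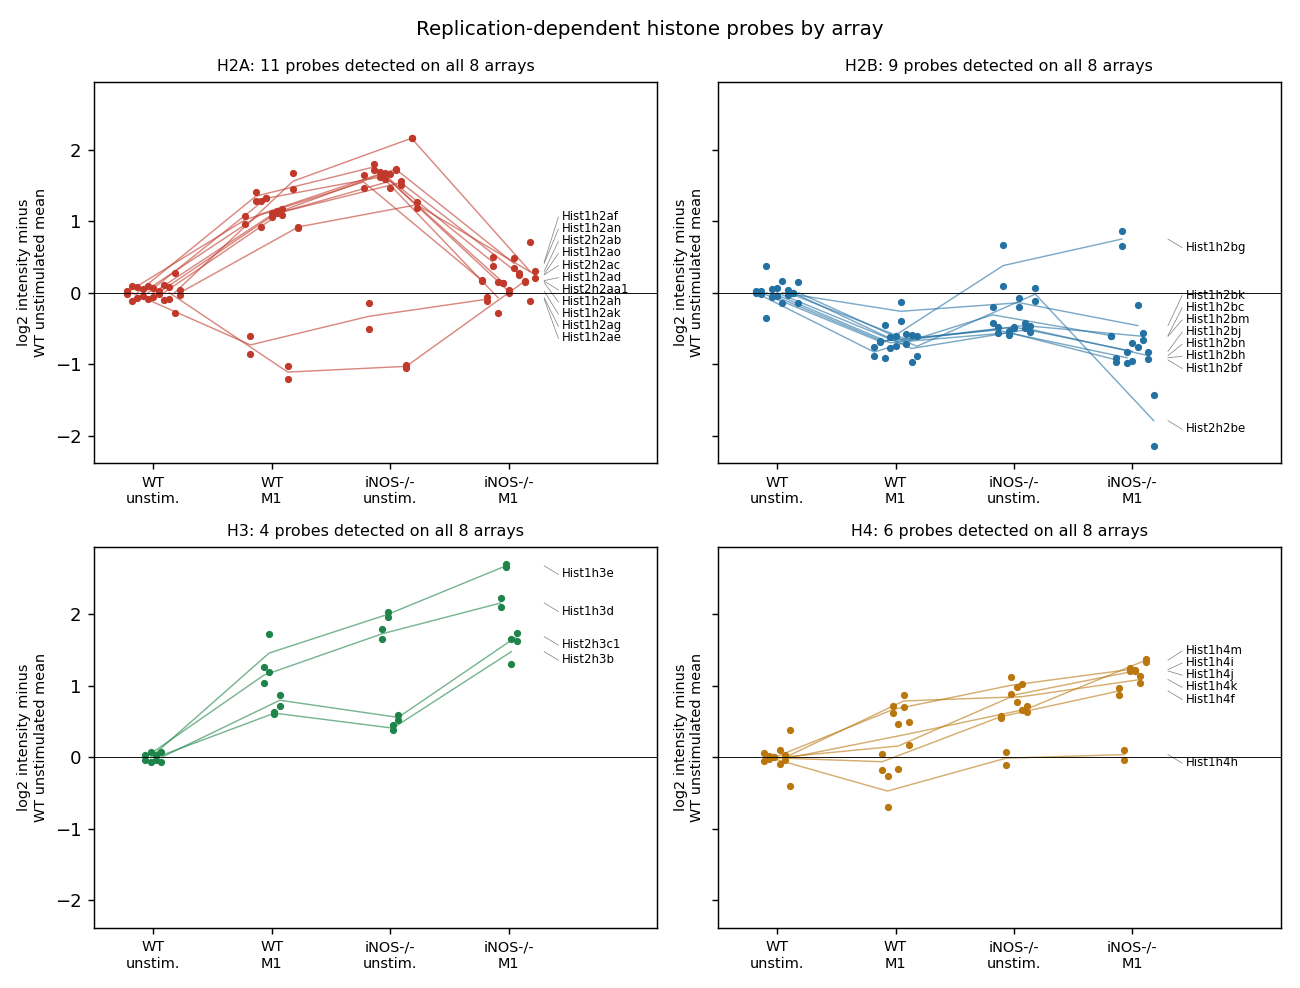
Log2 intensity of each replication-dependent histone probe detected on all 8 arrays, less its mean on the WT unstimulated arrays, with points for single arrays and lines through group means. Of the 11 H2A probes, 9 stand highest on iNOS-/- unstimulated arrays, whereas H3 probes stand highest on iNOS-/- M1 arrays.

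Other H2A genes did not follow. Hist2h2aa1 had log2 7.29 and 7.46 on WT unstimulated, 6.36 and 6.17 on WT M1, 6.33 and 6.37 on iNOS-/- unstimulated and 7.55 and 7.53 on iNOS-/- M1. It was high where the 9 probes were low. Its differences were -1.03 between unstimulated groups, -1.11 in WT activation, 1.19 in activation of cells labelled iNOS-/- and 1.27 between M1 groups (standard error 0.11 and adjusted p of at most 0.00214 from limma in each), and the difference of responses was 2.30. Hist1h2ae fell by 0.73 in WT activation and was 0.65 higher in M1 cells labelled iNOS-/-, but its other differences within or between genotypes, -0.33 and 0.25, were not called. The probe of Hist1h2ae covers positions 628 to 677 of the array's transcript, beyond the 558 bases of the RefSeq gene, and that of Hist2h2aa1 covers positions 524 to 573, with no RefSeq match for its identifier. The probes of the 9 genes end between positions 50 and 391, inside genes of 452 to 536 bases. Hist3h2a was detected only on iNOS-/- arrays, at least 1.46-fold above WT in M1 cells, with a probe also beyond the gene end and a call in 9 of 15 settings. Hist1h2aa and Hist1h2ab, near background, had no called difference.

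H2B genes partner H2A in the nucleosome, yet most of their probes were lower or not called where most H2A probes were higher. Of 11 tested H2B probes, 1 was higher and 5 were lower on unstimulated arrays labelled iNOS-/-, with a median log2 difference of -0.31. In WT activation 1 rose and 6 fell, with a median of -0.68. In activation of cells labelled iNOS-/- 0 rose and 3 fell by limma. At an unadjusted p under 0.05 6 fell and 0 rose, without a share of all tested probes at that threshold to set beside them. Between M1 groups 1 was higher and 2 were lower. Calls of lower levels made up 45.5%, 54.5%, 27.3% and 18.2% of the H2B probes in this order, against 15.4%, 14.3%, 25.1% and 25.3% of all tested probes. In activation of cells labelled iNOS-/- and between M1 groups the H2B share was thus near or below that of all probes. Except for Hist1h2bg and Hist2h2be, the H2B genes named below were chosen after their values were seen.

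Hist1h2bf had log2 9.82 and 9.77 on WT unstimulated, 9.10 and 9.12 on WT M1, 9.31 and 9.22 on iNOS-/- unstimulated and 8.82 and 8.87 on iNOS-/- M1. WT unstimulated cells were the highest group and no groups overlapped. The difference was -0.53 between unstimulated groups (standard error 0.08, adjusted p = 0.00694 from limma) and -0.68 in WT activation (adjusted p = 0.00297). Hist1h2bh, Hist1h2bj, Hist1h2bm and Hist1h2bn had differences between -0.55 and -0.46 between unstimulated groups and between -0.78 and -0.65 in WT activation, all called by limma. Between unstimulated groups the call of Hist1h2bn held in 8 of 16 settings, that of Hist1h2bj in 11, that of Hist1h2bm in 12 and that of Hist1h2bh in 13, with no change of sign. In WT activation that of Hist1h2bn held in 13, that of Hist1h2bj in 14 and those of Hist1h2bh and Hist1h2bm in all 16. Hist1h2bc was called lower in WT activation by the brighter of its 2 probes (-0.83), and not by the dimmer one (-0.38).

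Hist1h2be, at background on WT arrays, was the only H2B probe called higher in unstimulated cells labelled iNOS-/-, by at least 1.06-fold, with a fitted value of 0.00 when intensities under 16 were set to 16. It was also called in WT activation, where neither group was detected and no fold is given. Hist2h2be, whose probe covers positions 2542 to 2591 of a RefSeq gene of 2667 bases, fell by 1.77 in activation of cells labelled iNOS-/- (standard error 0.26, adjusted p = 0.00353 from limma). Between M1 groups its difference was -1.04, called in 10 of 16 settings. Hist1h2bg was 1.44 higher in M1 cells labelled iNOS-/-, at levels of log2 2.72 and 3.19 on WT M1 and 4.29 and 4.50 on iNOS-/- M1. The probe of Hist1h2bg covers positions 576 to 625, beyond the 464 bases of the gene.

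Many H2A and H2B genes sit side by side and are read in opposite directions from start sites that share a short stretch of DNA. RefSeq starts placed 6 such pairs of H2A and H2B genes on chromosome 13 within 500 bases of each other, and in 5 pairs both genes were tested. The stretches between starts are printed for the 3 pairs whose genes had calls in opposite directions between unstimulated groups and for 1 pair without such calls. They are given on the plus strand of GRCm38.p6, from RefSeq, with CCAAT or its reverse complement ATTGG and TATAAA in capitals. The pair of Hist1h2ak and Hist1h2bn lies 163 bases apart at chr13:21753913-21754075, that of Hist1h2ag and Hist1h2bj 248 bases apart at chr13:22042950-22043197, that of Hist1h2ad and Hist1h2bf 173 bases apart at chr13:23574208-23574380, and that of Hist1h2ae and Hist1h2bg 179 bases apart at chr13:23571221-23571399.
Hist1h2ak and Hist1h2bn: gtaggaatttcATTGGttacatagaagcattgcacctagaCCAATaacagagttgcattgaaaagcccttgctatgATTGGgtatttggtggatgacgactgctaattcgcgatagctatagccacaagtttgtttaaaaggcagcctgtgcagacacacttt
Hist1h2ag and Hist1h2bj: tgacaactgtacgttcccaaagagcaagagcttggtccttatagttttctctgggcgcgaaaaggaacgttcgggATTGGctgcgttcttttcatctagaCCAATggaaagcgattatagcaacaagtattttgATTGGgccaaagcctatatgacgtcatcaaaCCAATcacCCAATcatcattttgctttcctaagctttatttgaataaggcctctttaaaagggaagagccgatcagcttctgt
Hist1h2ad and Hist1h2bf: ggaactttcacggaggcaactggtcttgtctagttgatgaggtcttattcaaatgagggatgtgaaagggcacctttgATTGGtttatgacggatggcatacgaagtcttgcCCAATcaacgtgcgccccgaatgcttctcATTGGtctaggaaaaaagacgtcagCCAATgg
Hist1h2ae and Hist1h2bg: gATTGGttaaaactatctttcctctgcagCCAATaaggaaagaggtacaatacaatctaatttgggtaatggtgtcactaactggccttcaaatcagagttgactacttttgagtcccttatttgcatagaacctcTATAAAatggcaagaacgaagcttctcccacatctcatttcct
These stretches hold 3, 5, 4 and 2 CCAAT motifs on either strand. Across all promoters in the RefSeq table, taken as 250 bases before to 50 after the start of 1 transcript per gene, CCAAT on either strand was in 41 of 49 replication-dependent genes (83.7%), in 5 of 9 variants (55.6%) and in 37.9% of 27025 genes. TATAAA was in 59.2%, 11.1% and 14.2%. TTTGGCGC and TTTCCCGC, patterns of E2F sites that S phase genes often carry, were in 0 of the 49 and 0 of the 9, against 0.537% and 1.11% of all genes. Exact matches this rare would seldom occur in sets this small, so these counts cannot show a lack of E2F sites. CCAAT and TATAAA do not overlap each other as patterns, and a match shows only that the letters are there.

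Across the 5 pairs the H2A partner was called higher in unstimulated cells labelled iNOS-/- for Hist1h2ak (1.56), Hist1h2ah (1.63), Hist1h2ag (1.66) and Hist1h2ad (1.55), while the H2B partners, in the same order, had log2 differences of -0.50 for Hist1h2bn, -0.14 for Hist1h2bk, -0.49 for Hist1h2bj and -0.53 for Hist1h2bf. All of these but that of Hist1h2bk were called. In WT activation the same H2A genes rose by 1.09, 1.32, 1.10 and 1.01, and the H2B genes had -0.78, -0.26, -0.68 and -0.68, again called but for Hist1h2bk. In activation of cells labelled iNOS-/- both partners had negative values, of -1.54, -1.50, -1.72 and -1.38 for the H2A genes, all called, and -0.38, -0.32, -0.34 and -0.42 for the H2B genes, with only Hist1h2bf called. Between M1 groups the H2A genes had -1.07, -1.19, -1.17 and -0.84, all called, and the H2B genes -0.10, -0.21, -0.15 and -0.26, with only Hist1h2bf called. The starts of Hist1h2ah and Hist1h2bk lie 177 bases apart. The pair of Hist1h2ae and Hist1h2bg, whose probes both lie beyond the gene ends, had no called difference between unstimulated groups. The H2A probes of Hist1h2ak and Hist1h2ad and Hist1h2ah are near-identical in part, so these pairs are not independent of each other.

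**Figure D3:**
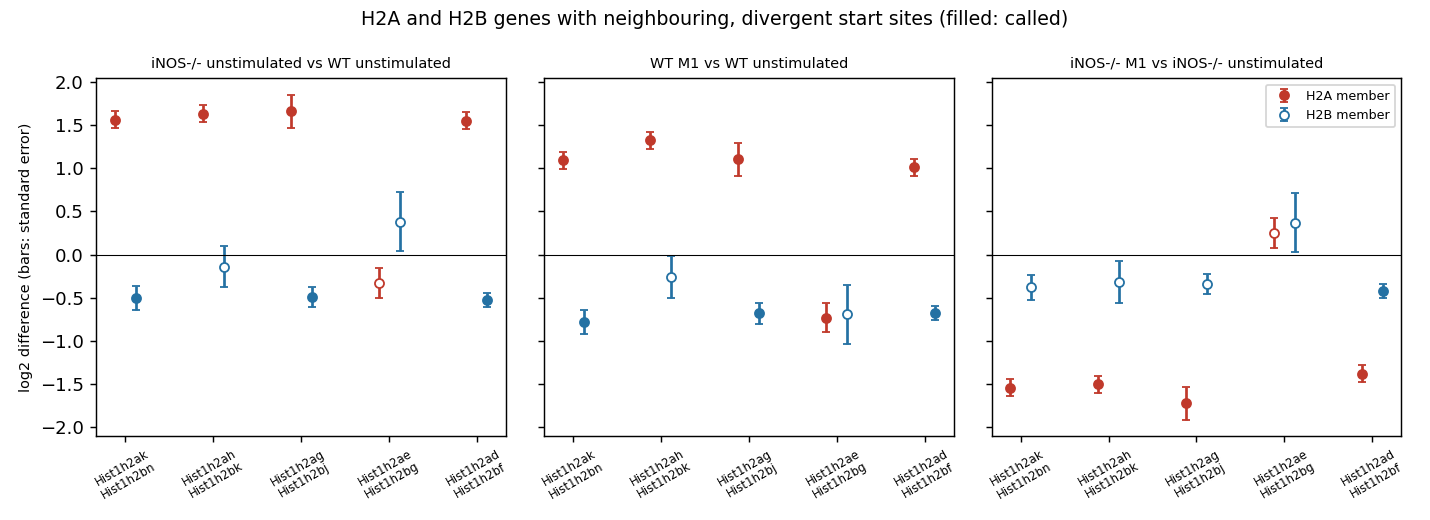
Log2 difference and its standard error for the H2A (red) and H2B (blue) gene of each of 5 neighbouring pairs in 3 comparisons, filled where called at an adjusted p under 0.05 from limma. In 4 pairs the H2A point lies above 0 and the H2B point below 0 in the comparison of unstimulated groups and in WT activation.

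The 4 H3 probes detected on all arrays were lowest in WT unstimulated cells, and all calls of H3 probes in the 4 comparisons of groups were towards higher levels. Of the 10 tested H3 probes, 4 were higher between unstimulated groups, 6 rose in WT activation, 5 rose in activation of cells labelled iNOS-/- and 5 were higher between M1 groups. These counts were 40%, 60%, 50% and 50% of the H3 probes, against 16.7%, 20.8%, 25.2% and 22.9% of all tested probes. By limma 0 H3 probes were called lower, and at an unadjusted p under 0.05 none was lower either. The medians were 1.19, 1.0, 1.09 and 1.09, against 0.62, 0.52, 0.47 and 0.44 under neqc and 0.49, 0.31, 0.36 and 0.58 with intensities under 16 set to 16. Under neqc, with that floor and in a fit to the 4 arrays compared, 1 probe was called lower in activation of cells labelled iNOS-/-.

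Hist1h3e had log2 4.74 and 4.88 on WT unstimulated, 6.00 and 6.53 on WT M1, 6.78 and 6.85 on iNOS-/- unstimulated and 7.51 and 7.47 on iNOS-/- M1. The groups stood in that order without overlap. Unstimulated cells differed by 2.00 (standard error 0.19, adjusted p = 0.00146 from limma), and the M1 groups by 1.23. Hist1h3d gave the same order at log2 5.22 and 5.29, 6.29 and 6.51, 7.05 and 6.91, and 7.35 and 7.48, and its probe shares 45 of 46 overlapping bases with that of Hist1h3e. Hist1h3a was 2.96 higher between unstimulated groups, where 1 of the WT arrays was at background.

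The H3 probes from the chromosome 3 cluster differed in the size of the steps. The brighter Hist2h3c1 probe had 9.51 and 9.64, 10.29 and 10.45, 10.16 and 10.10, and 11.20 and 11.31. Here WT M1 lay above iNOS-/- unstimulated, and the largest step was the rise of 1.12 in activation of cells labelled iNOS-/- (standard error 0.10, adjusted p = 0.000633 from limma). Hist2h3b rose by 1.06 in that comparison and by 0.62 in WT. Under neqc and quantile normalization the order of these rises turned for both genes, with 0.60 and 0.61 in iNOS-/- against 0.83 and 0.85 in WT for Hist2h3c1, and 0.54 and 0.55 against 0.68 and 0.69 for Hist2h3b. Whether the probes of Hist2h3c1 and Hist2h3b bind each other's transcripts was not tested. The other H3 probes, of Hist1h3c, Hist1h3f, Hist1h3g and Hist1h3h, were detected on 3 to 6 arrays and had no called difference in these comparisons.

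H4 calls were also all towards higher levels. Of 8 tested probes, 5 were higher between unstimulated groups, 3 rose in WT activation, 2 rose in activation of cells labelled iNOS-/- and 5 were higher between M1 groups, with medians of 0.76, 0.25, 0.35 and 0.94. These counts were 62.5%, 37.5%, 25% and 62.5% of the H4 probes, against 16.7%, 20.8%, 25.2% and 22.9% of all tested probes. The share in activation of cells labelled iNOS-/- was thus no higher than over all probes. The median in WT activation was 0.00 under neqc, -0.06 under quantile normalization and 0.00 with a floor of 16, and that between unstimulated groups was 0.37 under neqc and 0.26 with that floor. Hist1h4c was undetected on WT unstimulated arrays, and unstimulated cells labelled iNOS-/- lay at least 2.06-fold above them. Hist1h4i had log2 6.12 and 6.13, 6.84 and 6.74, 7.25 and 7.01, and 7.33 and 7.37 in the group order used above, and was named after its values were seen. Its difference of 1.0 between unstimulated groups was called (standard error 0.11, adjusted p = 0.00245 from limma), as was that of 0.56 between M1 groups. No H4 probe was called lower under limma in these comparisons, but under neqc, under quantile normalization and among probes detected on all 8 arrays 1 was called lower in WT activation.

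Linker histones gave few measurements. Hist1h1c rose by 0.34 in WT activation and by 0.39 in cells labelled iNOS-/-, with a probe beyond the gene end. The difference was 0.38 between unstimulated groups and 0.44 between M1 groups, each called by limma. The calls between unstimulated groups and in WT activation each held in 6 of 16 settings. Under quantile normalization or neqc the 2 values that involve iNOS-/- M1 arrays turned to -0.26 and -0.04. Hist1h1b rose by at least 2.04-fold in WT and at least 1.67-fold in cells labelled iNOS-/- under the main scaling, from undetected levels. In log2 units these rises were 0.24 and 0.14 under neqc, and the lowest of any setting was 0.00 for both.

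Variants of H2A went 2 ways. H2afx encodes H2A.X, which is phosphorylated at DNA breaks. It had log2 6.87 and 6.95 on WT unstimulated, 8.50 and 8.31 on WT M1, 8.41 and 8.29 on iNOS-/- unstimulated and 7.37 and 7.22 on iNOS-/- M1. WT M1 and iNOS-/- unstimulated arrays overlapped and stood above the others. Its differences were 1.44 between unstimulated groups (standard error 0.11, adjusted p = 0.000878 from limma), 1.49 in WT activation, -1.06 in activation of cells labelled iNOS-/- and -1.10 between M1 groups, and the difference of responses was -2.55. H2afj, a close relative of core H2A, fell by 1.21 in cells labelled iNOS-/- and was 0.88 lower between M1 groups, with no called difference between unstimulated groups (0.57).

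H2afz, which encodes H2A.Z found at promoters, had 10.80 and 10.79 on WT unstimulated, 11.59 and 11.58 on WT M1, 11.83 and 11.93 on iNOS-/- unstimulated and 12.32 and 12.18 on iNOS-/- M1. The 4 groups stood in that order without overlap. The gap was 1.08 between unstimulated groups and 0.79 in WT activation, both called. The rise of 0.37 in cells labelled iNOS-/- was called by limma, but under neqc and quantile normalization it was -0.24, and between M1 groups the 0.66 became 0.18 and 0.19. H2afy encodes macroH2A1, which carries an extra domain and is enriched on the inactive X. It had 9.41 and 9.39, 10.52 and 10.45, 10.48 and 10.74, and 10.94 and 11.14 in the same order of groups. It was 1.21 higher between unstimulated groups, and the rise of 0.43 in cells labelled iNOS-/- turned to -0.10 under both of those settings.

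**Figure D4:**
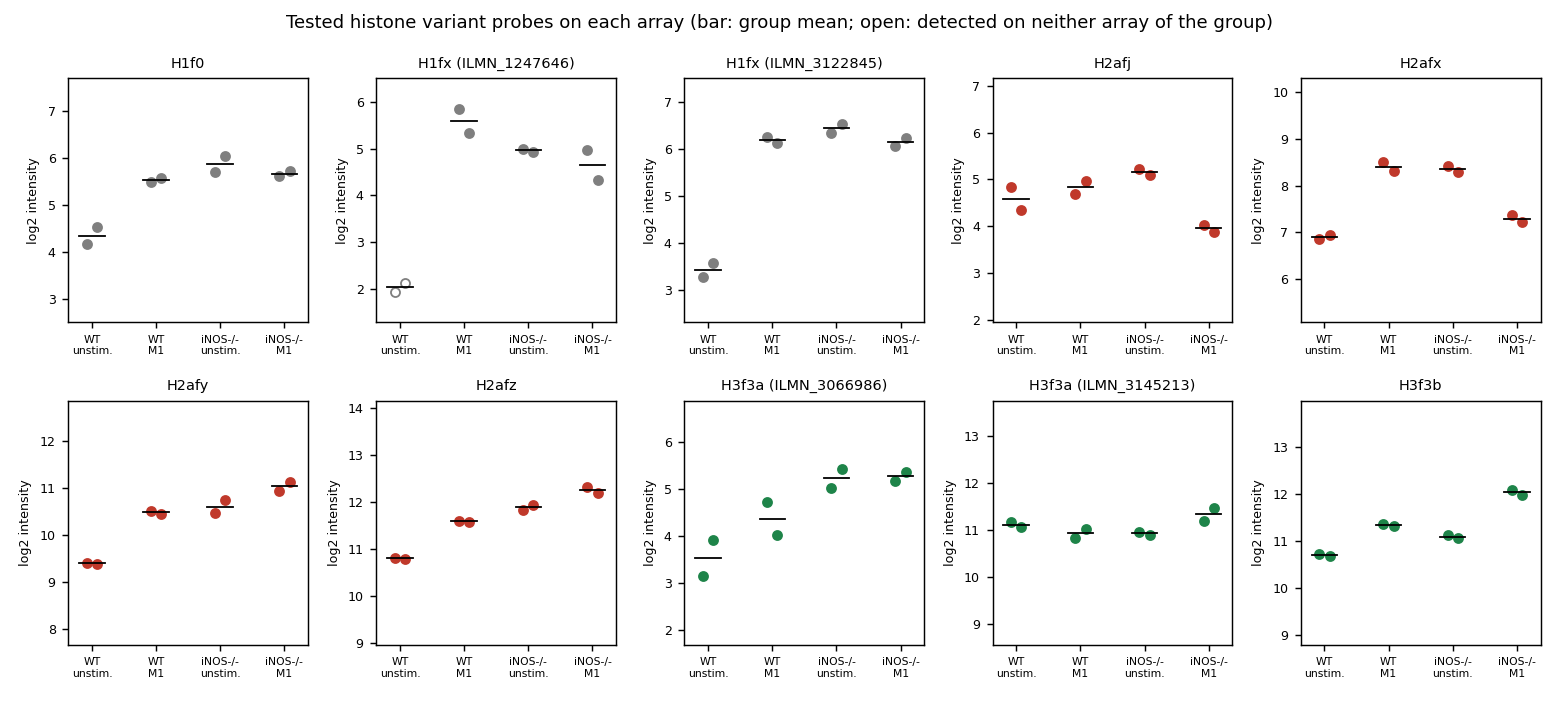
Log2 intensity of each tested histone variant probe on the 8 arrays, with bars for group means, an open point where no array of the group detected the probe, and the same span in log2 units on every axis. H1fx and H1f0 are low in WT unstimulated cells only, whereas H2afx is high in WT M1 and iNOS-/- unstimulated cells.

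H1fx and H1f0, linker variants, were low in WT unstimulated cells. H1fx encodes the H1.X linker histone, and its brighter probe had 3.28 and 3.57 on WT unstimulated, 6.27 and 6.13 on WT M1, 6.35 and 6.54 on iNOS-/- unstimulated and 6.07 and 6.23 on iNOS-/- M1. WT unstimulated arrays were low and the other groups lay close to each other. The difference was 3.02 between unstimulated groups (standard error 0.15, adjusted p = 0.000198 from limma), an 8.11-fold gap, and 2.78 in WT activation, and these were 1.87 and 1.60 under neqc. No difference was called between M1 groups (-0.05) or in cells labelled iNOS-/- (-0.29). The other H1fx probe was undetected on WT unstimulated arrays. Under the main scaling it lay at least 5.56-fold higher in unstimulated cells labelled iNOS-/- and at least 8.57-fold higher in WT M1. Under neqc its log2 differences were 1.12 and 1.51. It was called lower between M1 groups (-0.95, in 6 of 15 settings), and the brighter probe was not. H1f0, the linker histone linked to cells that have stopped dividing, had 4.17 and 4.54, 5.50 and 5.59, 5.70 and 6.04, and 5.62 and 5.73 in the same order of groups, and was called between unstimulated groups (1.52) and in WT activation (1.20).

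The H3.3 genes H3f3a and H3f3b encode the same protein, placed outside replication. H3f3b had 10.72 and 10.69, 11.37 and 11.33, 11.14 and 11.06, and 12.10 and 11.98 in the same order of groups, so iNOS-/- M1 stood highest. It rose by 0.64 in WT and by 0.94 in cells labelled iNOS-/- and was 0.39 and 0.69 higher between unstimulated and between M1 groups, all called by limma. Under neqc and quantile normalization the rise in cells labelled iNOS-/- was 0.29, below the 0.66 and 0.67 in WT, and the difference between M1 groups was 0.18 and not called. The 2 probes of H3f3a disagreed. The brighter one had a called difference only in activation of cells labelled iNOS-/- (0.41), which became -0.19 under those settings, whereas the dimmer was called between unstimulated groups (1.71).

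Genes of S phase and mitosis were set beside the histones, from lists chosen with earlier results of these data known. Of 18 tested S phase genes, 14 were higher and 1 lower in unstimulated cells labelled iNOS-/-, with a median of 1.45. In WT activation 13 rose and 1 fell (median 1.37), in cells labelled iNOS-/- 1 rose and 12 fell (median -1.39), and between M1 groups 1 was higher and 13 were lower (median -1.06). Over all tested probes, 16.7%, 20.8%, 25.2% and 22.9% were called higher in this order, and 15.4%, 14.3%, 25.1% and 25.3% lower. The medians over all tested probes were 0.00, 0.09, 0.00 and -0.03. Mcm5, a subunit of the replicative helicase, had differences of 1.79, 1.49, -1.15 and -0.85, and Mcm4 of the same complex 0.76, 0.54, -1.05 and -0.83. Pcna, the sliding clamp, was the exception that was lower in unstimulated cells labelled iNOS-/- and in WT activation (-0.93 and -1.14). All 9 tested mitosis genes were higher between unstimulated groups and in WT activation and lower in activation of cells labelled iNOS-/- and between M1 groups, with medians of 1.95, 1.51, -1.82 and -1.64. Birc5, which acts in chromosome segregation, had 2.20, 2.15, -1.82 and -1.78, and Top2a, which untangles DNA, 2.16, 2.06, -1.18 and -1.09.

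**Figure D5:**
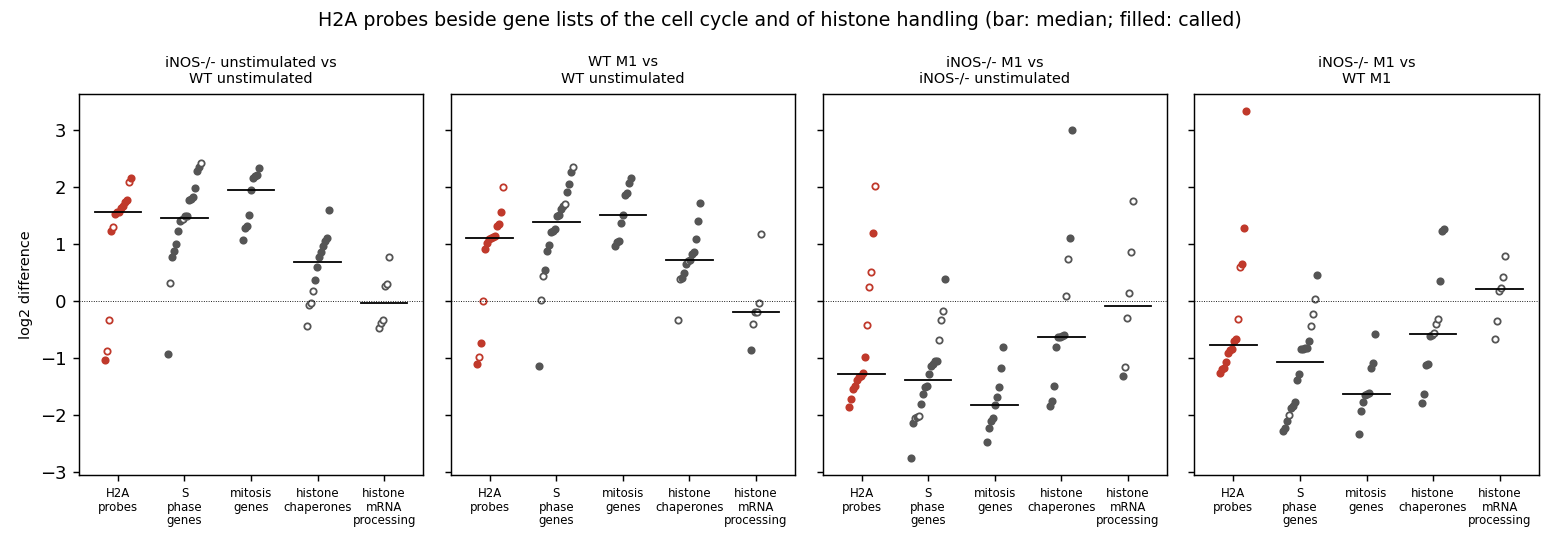
Log2 differences of the H2A probes beside genes of S phase, mitosis, histone chaperones and histone mRNA processing in 4 comparisons, with a bar at each list's median and filled points called at an adjusted p under 0.05 from limma. H2A, S phase and mitosis medians lie above 0 in the left panels and below 0 in the right panels.

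Histone chaperones deliver histones to DNA. Of 12 tested, 8 were higher and 0 lower between unstimulated groups, 9 rose and 0 fell in WT activation, 2 rose and 8 fell in cells labelled iNOS-/-, and 3 were higher and 6 lower between M1 groups, with medians of 0.68, 0.71, -0.62 and -0.58. Among all tested probes, 16.7%, 20.8%, 25.2% and 22.9% were called higher in these 4 comparisons, and 15.4%, 14.3%, 25.1% and 25.3% lower. Hat1, which acetylates new H4, was called higher in all 4 (0.59, 0.48, 1.11 and 1.22). Nap1l1, an H2A and H2B chaperone, had 0.97, 0.72, 0.09 and 0.34. Of the 6 tested genes for histone mRNA transcription and processing, 0 were called by limma between unstimulated or between M1 groups, and Lsm10, a part of the processing complex, fell by 0.86 in WT activation. Slbp, which binds the stem-loop of histone mRNA, was detected on no array, so the level of this binding protein's mRNA has no measurement here.

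Markers of other cells moved between groups. Of 7 tested dendritic cell markers, 5 were higher between unstimulated groups and 5 rose in WT activation (medians 2.62 and 2.67). In activation of cells labelled iNOS-/- 4 rose, and between M1 groups 2 were higher (medians 0.98 and 1.15). Of all tested probes, 16.7%, 20.8%, 25.2% and 22.9% were called higher in these comparisons, and 15.4%, 14.3%, 25.1% and 25.3% lower. The summed log2 level of the dendritic cell markers was 8.33 to 8.54 on WT unstimulated arrays, 10.61 to 10.63 on WT M1, 10.31 to 10.34 on iNOS-/- unstimulated and 12.44 to 12.47 on iNOS-/- M1, with Flt3 undetected on every array. Clec9a, near background, did not follow, with means of 2.57, 1.43, 0.77 and 1.05 in that order. Nor did Itgax, detected on every array, with means of 7.58, 7.98, 7.98 and 7.54. Of 7 granulocyte markers, 5 were higher and 1 lower between unstimulated groups, and their sums ran 10.14 to 10.17, 10.46 to 10.56, 10.72 to 10.78 and 11.92 to 11.97 in that order, with Mpo, Prtn3 and Retnlg undetected on every array. The 4 mast cell and basophil markers summed to 3.35 to 3.51, 5.22 to 5.29, 6.51 to 6.74 and 6.95 to 6.97, with Mcpt8 and Ms4a2 undetected. Cpa3 made up most of this rise, with a mean of 0.00 on WT unstimulated and 6.88 on iNOS-/- M1 arrays. Fcer1a, the only other tested marker of this list, did not rise, with means of 2.89 and 1.45 in these groups. The macrophage marker probes summed to between 14.93 and 15.51, and Lyz2 and Lyzs added the most (means over all arrays 14.14 and 13.20). Between M1 groups 3 of the macrophage marker probes were higher and 5 lower. Means on WT M1 and iNOS-/- M1 arrays were 11.43 and 10.14 for Csf1r and 11.19 and 10.27 for Cd68. Cd14 and Mertk went the other way, with 11.52 and 12.97, and 8.90 and 9.89. The part of such cells in the histone differences was not tested.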

How the data were processed

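Total RNA was hybridised to Illumina beadchips that the labels call MouseRef-8 and the study's methods MouseWG-8. The deposited intensities are GenomeStudio average signals per probe with a detection p-value for each. Per the file headers no normalization or background subtraction was applied, yet 25.2% to 27.2% of the values per array were below 0, as after subtraction of background. The submitters' processing notes also name limma 3.14.4, which made no value used here. The mean intensity was 155 to 224 per array, and with 2 arrays in each of 4 groups the number of arrays limits the precision.

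The study's methods name background subtraction, rank-invariant normalization and 1 in place of negative values before the log2 step. Here rank-invariant probes set a scaling factor for every array (0.813 to 1.3), no further background was subtracted, all values under 1 were set to 1 and log2 was taken. Probes detected at p under 0.05 on at least 2 arrays were kept. One linear model over the 4 groups was fitted with limma 3.58.1 in R 4.3.3 (rank-invariant scaling with MASS 7.3.60.0.1), with moderated two-sided tests and Benjamini-Hochberg adjustment over all 13868 probes. The model gave 4 comparisons and the difference of the M1 responses, and a script was tested on simulated data. Fold changes to a group detected on no array are lower bounds under the main scaling, and other settings gave smaller values for some probes. They are taken against the higher of the probe's own level and the lowest detected level of each array. Tables and figures were made with Python 3.11.15, pandas 2.3.3 and matplotlib 3.10.9.

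The histone genes and all lists were chosen with earlier results of these data known. In each class and comparison, up to 6 called probes with the largest difference were named. The other histone genes named (Hist1h2ao, Hist2h2ac, Hist1h2ae, Hist2h3b, the H4 genes but Hist1h4c, the H1 genes of the clusters and most H2B genes) were chosen after their values were seen. Probe sequences are those of the deposited table, and 66 of 67 symbols were matched to RefSeq genes of GRCm38.p6. Protein sequences were not used here, and some marker results are not reported here. Replicate numbers did not pair the arrays (correlations of deviations -0.04 to 0.02), and no pair of arrays was identical. Alternatives were quantile normalization, neqc, all probes without the detection filter, detection on all 8 arrays, a floor of 16, a fit to the 4 arrays compared, a replicate block, a minimum fold of 2 and each array left out.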

Additional observations from a re-analysis of the deposited data

Results flagged for a closer look

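The response to M1 activation differed between genotypes, by limma's test of the difference itself, for the following named histone probes, each value being the log2 response on arrays labelled iNOS-/- minus that in WT. Among H2A genes it was -2.39 for Hist1h2ad, -2.67 for Hist1h2af, -2.82 for Hist1h2ag, -2.82 for Hist1h2ah, -2.63 for Hist1h2ak, -2.44 for Hist1h2an and -3.43 for Hist2h2ab. These are genes that rose with activation in WT and fell in cells labelled iNOS-/-, and some of their probes are nearly the same sequence. Hist2h2aa1 had 2.30, falling in WT and rising in the other genotype. Among H3 genes it was -1.78 for Hist1h3a and -0.71 for Hist1h3d, called in 6 of 14 and 9 of 15 settings, and under neqc they were -0.53 and -0.39.

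Among variants it was -3.07 and -3.87 for the 2 probes of H1fx, -1.39 for H1f0, -2.55 for H2afx, -1.45 for H2afj, -0.65 for H2afy and -0.42 for H2afz. For H1fx and H1f0 the value reflects a rise in WT without a called change in cells labelled iNOS-/-. The values of H2afy and H2afz were called in 8 and 7 of 15 settings, and the others of this group in all of theirs.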

How the results depend on the processing

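Of 130 differences of named histone probes (26 probes in 5 comparisons), 86 kept their side of the threshold and, where called, their sign in every setting. Leaving out an array turned the sign of 0 called differences. Under neqc and quantile normalization the change in activation of cells labelled iNOS-/- turned from a called rise to -0.10 in both for H2afy, to -0.24 in both for H2afz and to -0.19 in both for the brighter H3f3a probe. The difference of responses turned to -0.37 under neqc for H3f3b and to 0.58 with a floor of 16 for Hist1h4c, which was at background in WT unstimulated cells. The cause was not tested. With a minimum of 2-fold, replication-dependent calls numbered 13 between M1 groups, 16 between unstimulated groups, 16 in WT activation and 14 in activation of cells labelled iNOS-/-, and variant calls 1 between M1 groups and 2 in the last. Variant calls in activation of cells labelled iNOS-/- were 3 under neqc, 3 under quantile normalization and 3 in a fit to the 4 arrays compared, and between M1 groups 3 under quantile normalization. With each array left out in turn, replication-dependent calls ranged from 17 to 27 between M1 groups, 17 to 26 between unstimulated groups, 23 to 28 in WT activation, 17 to 24 in activation of cells labelled iNOS-/- and 11 to 16 for the difference of responses. Variant calls ranged from 3 to 7, 6 to 8, 7 to 7, 3 to 5 and 5 to 7 in that order, the 3 coming without the second iNOS-/- M1 array and without the first iNOS-/- unstimulated array. With the replicate block, replication-dependent calls were 26, 24, 29, 20 and 14 and variant calls 6, 8, 7, 5 and 6. Probes near background have only bounds.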
